A study of Homo sapiens with 12 samples.

Results

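The comparison set 3 libraries of day 15 against 3 libraries of day 10, 6 of the 12 RNA-sequencing libraries of a course in which the human embryonic stem cell line H9, an established line, was differentiated toward γδ T cells. The members were chosen by day, and the description runs across all 20183 genes that passed a filter on low counts, of 36601 in the table. The labels call the day 10 cells haematopoietic progenitors and the day 15 cells T progenitors. All 6 libraries come from the wild-type H9 line, carry 1 batch label, and share the steps before day 6, in which cell aggregates received CHIR99021, BMP4, activin A and Y-27632, then VEGF and bFGF. From day 6 the medium was APEL2 with VEGF at 50 ng/mL, bFGF and SCF at 20 ng/mL each, Flt3L and IL-7 at 10 ng/mL each, and 4 µM SB431542. From day 10 it was MEM-α with 20% fetal bovine serum, 1% GlutaMAX, 30 µM MAP, SCF and DLL4 at 10 ng/mL each, and IL-7 and Flt3L at 5 ng/mL each. Part of that medium was exchanged every other day. VEGF, bFGF and SB431542 are thus in the earlier medium alone, and serum, MAP and DLL4 in the later one alone, so day, age in culture and each of these agents cannot be told apart. The stem cells were grown on mouse feeder cells before the differentiation, and the labels do not say whether the day 10 RNA was taken before the medium was replaced.

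DLL4 is a ligand of the Notch receptors. When it engages a receptor on a neighbouring cell, ADAM proteases and γ-secretase cut the receptor, and its released inner part joins RBPJ and a MAML coactivator to switch on genes such as HES1. In the thymus that signal directs blood progenitors to the T lineage. SB431542 blocks the receptor kinases for TGF-β, activin and Nodal, whose signals pass through SMAD proteins to genes such as SMAD7.

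The 6 libraries held between 27026196 and 36606215 counts. Levels are CPM, each library's counts brought to 1 common total with edgeR's TMM factors, folds come from edgeR's quasi-likelihood fit, and adjusted p is its Benjamini-Hochberg value over all genes tested. A gene is called at an adjusted p under 0.05. The labels do not say whether the 3 libraries of a day were separate cultures, and p-values rest on the spread between libraries alone, which could be technical. Of the genes tested, 73.2% were called, 42.4% higher and 30.8% lower at day 15. At least 2-fold changes, 28.2% of genes higher and 14.7% lower, are therefore the scale against which each list below is set, with a median log2 fold change over all genes of 0.20. For 14990 of the 20183 genes tested the libraries of the days did not overlap, so a lack of overlap was the usual case. TMM factors were between 1.09 and 1.10 at day 10 and between 0.753 and 0.759 at day 15. With library-size scaling in place of TMM the median of all genes fell by 0.53, the calls went from 8562 higher and 6214 lower to 5917 and 9185, and a list or gene between 0 and about 0.5 turned its sign. The fit of the 6 libraries alone gave 7080 higher and 7020 lower, and a median of -0.011 over the 17936 genes shared with the main fit. The excess of rises over falls among called genes was thus nearly lost there. At 2-fold it remained in that fit, with 4591 higher and 3584 lower. In bulk RNA, fewer cells of a type and less RNA per cell cannot be told apart.

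T markers were low in the day 15 libraries, and their sum rose although most members were not called higher. Summed over 11 T-cell markers the level was 8.32 to 10.8 CPM at day 10 and 15.5 to 16.8 CPM at day 15, and of 7 tested 2 were called higher and 1, TCF7, lower. TRDC, the constant region of the δ receptor chain, had 11 counts at day 10 and 401 at day 15, at 5.90, 6.18 and 5.34 CPM, and CD5 rose 3.18-fold to 0.928, 0.821 and 0.442 CPM. The call of CD5 was lost without day 10 replicate 1 (edgeR adjusted p = 0.060), day 10 replicate 3 (0.074) or day 15 replicate 1 (0.056), and that of TCF7 without day 10 replicate 3 (0.12) or day 15 replicate 1 (0.23). Of 18 tested antigen receptor segment genes, T-cell receptor and immunoglobulin together, 11 (61.1%) were at least 2-fold higher. CD3E and CD3G, parts of the T-cell receptor complex, had 0 counts on both days. Markers of some other blood cells were far higher. The 6 megakaryocyte markers summed to 4610 to 4940 CPM and then 22200 to 23100 CPM, the 6 eosinophil and mast cell markers to 104 to 112 and then 8230 to 8760 CPM, and the 6 neutrophil and monocyte markers to 450 to 469 and then 4860 to 5100 CPM. All 18 of these were called higher, with none at 0. Other blood markers differed from these. The B-cell sum was 4.18 to 4.35 and then 6.27 to 7.68 CPM, with 1 of 2 tested called higher. The NK sum was 21.5 to 23.9 and then 12.9 to 14.7 CPM, with 2 of 4 tested called higher and 2 lower. Erythroid markers summed to 130 to 145 and then 152 to 173 CPM, and of 8 tested 3 were called higher and 5 lower. Summed stromal markers were at 1110 to 1140 and 1480 to 1550 CPM, and endothelial ones at 871 to 906 and 1270 to 1280 CPM. Of the 5 endothelial markers PECAM1 and VWF were called higher, PECAM1 with the other sign under library-size scaling, and CDH5, TEK and EMCN lower, EMCN not without day 10 replicate 2 (edgeR adjusted p = 0.19). The pluripotent sum fell from between 333 and 338 to between 36.1 and 36.5 CPM. Of 5 pluripotent markers tested 4 were called lower and 1, TDGF1, higher. LIN28A made up most of that sum, with means of 299 and then 30.1 CPM, while POU5F1 was at 0.813 CPM at day 10. The progenitor sum fell from between 1180 and 1240 to between 674 and 705 CPM. Of 6 progenitor markers 4 were called lower, PTPRC rose 8.02-fold and MYB was not called. The cardiac sum was 5.09 to 6.22 and then 48.6 to 52.6 CPM. Of the 5 cardiac markers 3 were called higher and NKX2-5 lower, with ACTN2 not called. MYH7 (means of 1.29 and then 37.4 CPM) and MYH6 (2.66 and then 11.4 CPM) made up most of the day 15 sum. The liver and yolk sac sum was 20.6 to 21.6 and then 85.6 to 87.1 CPM, with 5 of 6 called higher. The marker sums moved with each result below, the falls in replication and ribosome genes included, and their part in it was not tested. The cells are called day 15 cells here.

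NOTCH1 and NOTCH2 barely moved, NOTCH3 was higher and NOTCH4 lower, and 10 of 15 Notch target genes were higher. Of 11 receptor and ligand genes, 5 were called higher, near the 42.4% of all genes, and none of these by 2-fold. The 3 called lower were all lower by at least 2-fold (27.3%, against 14.7% of all genes). The median of the 11 was 0.11 and became -0.42 under library-size scaling. NOTCH1 stood at 208, 197 and 203 CPM at day 10 and 213, 217 and 217 CPM at day 15 (log2 fold change 0.09, edgeR adjusted p = 0.043). The ranges did not overlap, yet the difference took the other sign under library-size scaling, as did that of NOTCH2 (0.11). The call of NOTCH1 was lost without day 10 replicate 2 (edgeR adjusted p = 0.19), day 10 replicate 3, day 15 replicate 2 or day 15 replicate 3 (each 0.10). That of NOTCH2 was lost without day 10 replicate 1 (edgeR adjusted p = 0.42), day 10 replicate 3 (0.056), day 15 replicate 1 (0.15) or day 15 replicate 2 (0.094). NOTCH3 went from 22, 21.5 and 23.6 CPM to 33.1, 37 and 33.9 CPM, a call lost under library-size scaling (log2 fold change 0.099, edgeR adjusted p = 0.17). JAG1, a ligand, went from 21.1, 20.9 and 21.9 CPM to 36.7, 34.8 and 35.1 CPM (log2 fold change 0.74). NOTCH4, a receptor of vessels, fell by 1.08 on the log2 scale. The cells' own DLL4 transcript, which is not the protein added to the medium, was at 13.2, 10.7 and 10.7 CPM at day 10 and 2.87, 3.29 and 1.65 CPM at day 15. That was a fall of 4.47-fold (edgeR adjusted p = 8.7e-12), with no overlap.

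Of 20 genes for Notch processing and nuclear partners, 15 were called higher and 5 lower, but 5 (25.0%) higher and 1 (5.00%) lower by at least 2-fold, near the 28.2% of all genes for rises, with a median of 0.50 that became -0.03 under library-size scaling. The largest rise was MAML2, a coactivator of the cleaved receptor, from 1.90, 1.73 and 1.65 CPM to 28.2, 29.7 and 26.1 CPM, a 15.9-fold rise (SE 0.11 on the log2 scale, edgeR adjusted p = 8.6e-31). MAML3 went from 68, 70.3 and 69 CPM to 265, 260 and 246 CPM, and LFNG, the Fringe enzyme that adds a sugar to the receptor and tunes which ligand it answers, went from 2.63, 2.68 and 3.58 CPM to 10, 11.5 and 13.7 CPM. No library of the earlier day reached one of the later day for these 3 genes, as for most genes tested. Of 15 target genes, 10 were called higher and 4 lower, 8 and 4 of them by at least 2-fold, with a median of 1.20. HES4, a repressor of the HES family, stood at 10.4, 9.08 and 11.1 CPM at day 10 and 60.6, 59.7 and 65.7 CPM at day 15 (6.10-fold, edgeR adjusted p = 8e-27). HES1 rose less, from 15.6, 13.4 and 14 CPM to 35, 31.5 and 32.6 CPM (2.30-fold), and HES5 was near 3.46, 4.11 and 3.90 CPM after 0.698, 0.125 and 0.506. Against that direction ran HEY1 (log2 fold change -1.21), the Notch feedback inhibitor NRARP (-1.06), SOX17 (-1.61) and MYC, which went from 80.5, 76.9 and 76.1 CPM to 38.5, 33.2 and 32.4 CPM. DTX1, another target, was not called (log2 fold change -0.27). The list also holds CDKN1A, given with the cell-cycle genes, and IL2RA, a receptor chain of activated lymphocytes and mast cells, with 2 counts over day 10 and 2.40, 2.80 and 2.69 CPM at day 15.

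All 16 TGF-β and activin responsive genes were called higher, 11 of them by at least 2-fold, with a median of 1.99. BHLHE40, a transcription repressor, went from 3.84, 3.94 and 4.69 CPM to 86.1, 91.9 and 96 CPM (22.1-fold, SE 0.07 on the log2 scale, edgeR adjusted p = 1.5e-40). The inhibitory SMAD gene SMAD7 went from 5.33, 4.67 and 5.23 CPM to 22.2, 24.6 and 22.8 CPM (4.59-fold). Neither gene overlapped between the days. The SMAD corepressor genes TGIF1 and SKIL rose 9.30-fold and 5.40-fold, and CCN2, a matricellular protein gene, 8.46-fold to 21, 27.7 and 21.8 CPM.

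The genes for the ligands and receptors moved the same way. Of 21 tested, 16 were called higher and 2 lower, with a median of 1.53. TGFB1, the main ligand gene of blood cells, stood at 1086, 1111 and 1107 CPM at day 10 and 3009, 3180 and 3324 CPM at day 15 (2.88-fold, edgeR adjusted p = 1.6e-36). LEFTY1, a secreted Nodal inhibitor, went from 12, 10.9 and 13.3 CPM to 109, 119 and 115 CPM (9.52-fold), and NODAL from 0.190, 0.502 and 0.439 CPM to 4.09, 3.77 and 3.90 CPM (10.2-fold). The activin receptors ACVR2A and ACVR1B rose 7.19-fold and 5.38-fold. The 2 that fell were the coreceptor gene TGFBR3 (log2 fold change -1.59) and LTBP3 (-1.18), which encodes a protein that holds latent TGF-β. In the related BMP branch 13 of 22 genes were called higher and 4 lower (median 0.78). BMP6, a ligand, went from 4.82, 8.35 and 6.82 CPM to 527, 536 and 543 CPM, and ID2, which blocks E-protein transcription factors, stood at 56.9, 51.5 and 53.8 CPM at day 10 and 931, 903 and 890 CPM at day 15. These were rises of 79.1-fold and 16.8-fold. SMAD6, the inhibitory SMAD of that branch, rose 4.54-fold, and BMP4 fell by 1.36 on the log2 scale.

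**Figure D1:**
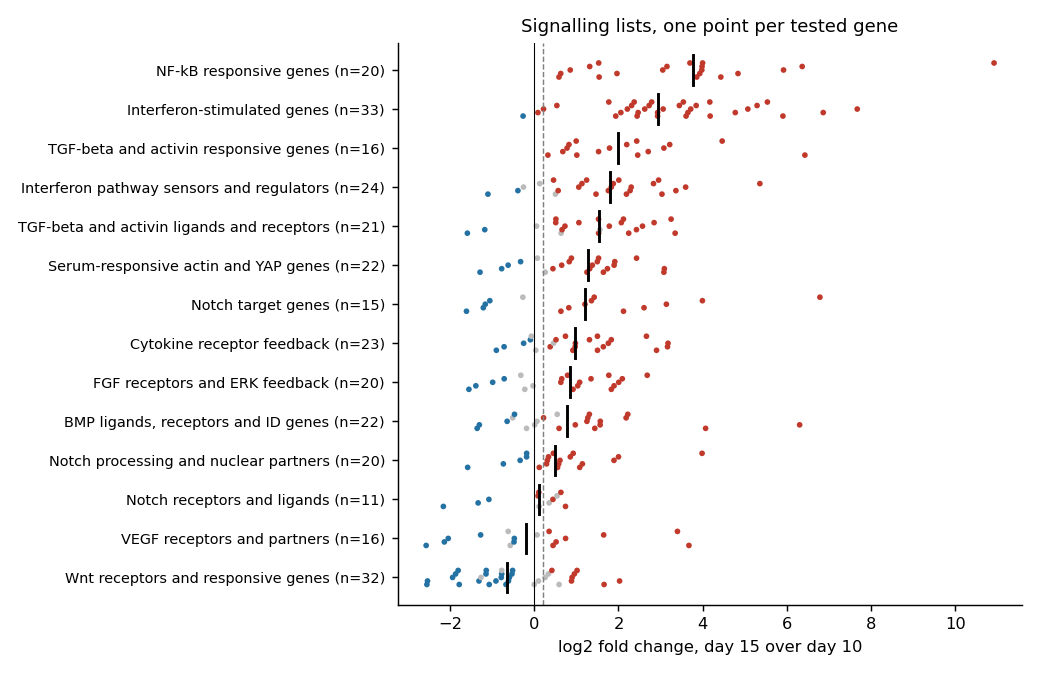
Log2 fold change of day 15 over day 10 for every tested gene of the signalling lists, 1 point a gene, with red for called higher, blue for called lower and grey for not called. The black bar is the list median and the dashed line the median of all genes tested (0.20), and the NF-κB and interferon-stimulated lists lie farthest to the right, at medians of 3.78 and 2.93.

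Wnt genes went the other way, and receptor lists for the growth factors withdrawn at day 10 split. Of 32 Wnt receptor and responsive genes, 18 were called lower and 7 higher (median -0.64). LEF1, a nuclear partner of β-catenin, fell from 16.2, 15.1 and 14.3 CPM to 2.53, 2.80 and 2.45 CPM (5.86-fold, edgeR adjusted p = 2.1e-17), and the target AXIN2 fell by 0.77 on the log2 scale. RNF43 and TCF7L2 rose 3.16-fold and 2.02-fold. Of 20 genes for FGF receptors and ERK feedback, 13 were called higher, among them DUSP6 (4.26-fold), DUSP4 (6.42-fold) and SPRY2 (3.72-fold), inhibitors that the pathway itself induces. The receptor genes FGFR3 and FGFR1 fell 2.93-fold and 1.98-fold. Of 16 VEGF receptor and partner genes, 7 were called higher and 6 lower. By at least 2-fold 3 (18.8%) were higher and 4 (25.0%) lower, against 28.2% and 14.7% of all genes. NRP2, a coreceptor, went from 16.7, 18.7 and 20.9 CPM to 197, 201 and 197 CPM, whereas TIE1, an endothelial receptor kinase, went from 118, 115 and 108 CPM to 18.9, 17.8 and 20.6 CPM. TIE1 was thus lower by 5.93-fold with no overlap, and FLT4, PLVAP and TEK fell 4.40-fold, 4.12-fold and 2.42-fold. Among genes for cytokine receptor feedback, 16 of 23 were called higher and 4 lower. The survival kinase gene PIM3 stood at 62.6, 61.3 and 65.8 CPM at day 10 and 544, 570 and 602 CPM at day 15, and SOCS3 and CISH, inhibitors of JAK-STAT signalling, rose 8.97-fold and 3.12-fold. In the serum-responsive actin and YAP list, 16 of 22 were called higher (median 1.28), with FLNA at 3500 ± 61.5 to 9884 ± 152 CPM and VCL at 1055 ± 19.6 to 3520 ± 3.77 CPM (mean ± SD, n = 3 libraries a day).

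An interferon pattern was among the widest changes. Interferon-stimulated genes encode proteins that block virus replication, and they answer to interferons through STAT2 and IRF9, parts of a complex that binds an element of repeated GAAA. The motif GAAANNGAAA was found, on either strand, in 18 of 27 promoters of these genes present in RefSeq (66.7%), and in 3.65% of all 27305 promoters of the same 300 bases. Some of these matches are shown with 10 bases either side, to make the shared element visible, with the match in capitals. The sequences are from RefSeq on GRCh38.p14, for IFIT1 at chr10:89392497-89392526, IFIT3 at chr10:89327831-89327860 and IFIT5 at chr10:89414513-89414542 on the minus strand, and for ISG15 at chr1:1013374-1013403 and MX1 at chr21:41420559-41420588 on the plus strand.
IFIT1: accgaaagggGAAAGTGAAActaaagctag
IFIT3: ttgggaggagGAAAATGAAAcctaacggct
IFIT5: gtaagcttcaGAAACCGAAActtaatagaa
ISG15: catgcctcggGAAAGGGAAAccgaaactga
MX1: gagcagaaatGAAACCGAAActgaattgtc

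Of 33 interferon-stimulated genes, 32 were called higher, 29 of them by at least 2-fold, with a median of 2.93. Summed, they stood between 1901 and 1982 CPM at day 10, between 14430 and 14630 CPM at day 15 and between 1785 and 1844 CPM at day 20. IFIT1, which binds foreign RNA ends, went from 65.5, 65.5 and 59 CPM to 2507, 2502 and 2461 CPM (39.2-fold, edgeR adjusted p = 1.6e-51). IFIT2 stood at 7.30, 6.62 and 6.14 CPM at day 10 and 1382, 1354 and 1367 CPM at day 15, a 204-fold rise and the largest of the list. IFIT3 rose 60-fold, RSAD2 46.5-fold and OASL 117-fold. The ubiquitin-like modifier gene ISG15, already expressed at day 10, rose 4.63-fold, from 222, 206 and 206 CPM to 962, 998 and 978 CPM. Members of the list did not all follow. IFI6 was at 494, 449 and 441 CPM at day 10 and 481, 469 and 518 CPM at day 15, ranges that overlapped, with a log2 fold change of 0.09 that took the other sign under library-size scaling. Its call was lost without day 10 replicate 2 (edgeR adjusted p = 0.20), day 10 replicate 3 (0.30) or day 15 replicate 3 (0.38). BST2, the tetherin gene, was lower (-0.27). Of 24 sensors and regulators, 19 were called higher and 2 lower. The RNA sensor IFIH1 went from 28.7, 31.7 and 28.6 CPM to 395, 383 and 396 CPM (13.2-fold), RIGI rose 12.2-fold, IRF1 12.1-fold and IRF7 4.93-fold. STING1, the adaptor of DNA sensing, fell 2.14-fold and IRF3 fell by 0.39 on the log2 scale, while CGAS was not called (-0.26). It was called lower without day 15 replicate 2 (-0.42, edgeR adjusted p = 0.023), in the fit of 6 libraries (-0.44), with no filter (-0.46) and under library-size scaling (-0.79).

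Among interferon genes, IFNB1, which encodes interferon β, had 2 counts over the 3 day 10 libraries and 1167 over the 3 day 15 libraries. Its levels were 17.5, 15.3 and 17.4 CPM at day 15, and it had 56 counts at day 20 and 0 at day 25. No other type I or III interferon gene had more than 24 counts at day 15, and that maximum was IFNL1, which had 4 at day 10. Antigen loading genes moved with the interferon list. Of 20 for the immunoproteasome and peptide loading, 15 were called higher (median 1.67). HLA-B, a class I presenting molecule, went from 23.4, 22.6 and 22.7 CPM to 523, 550 and 565 CPM (23.8-fold), and the peptide transporter gene TAP1 went from 19.4, 20.7 and 17.8 CPM to 342, 353 and 347 CPM. PSME1 and PSME2 fell by 0.42 and 0.58 on the log2 scale, as did PSMB10, ERAP1 and PDIA3 by smaller amounts, the last 3 named after their values were seen. The call of PSMB10 was lost without day 10 replicate 1 (edgeR adjusted p = 0.11) or day 15 replicate 3 (0.099). Of 31 constitutive proteasome subunit genes 27 were called lower (median -0.52), where 30.8% of all genes were. By at least 2-fold 4 (12.9%) were lower, near the 14.7% of all genes.

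NF-κB responsive genes and immediate early genes were higher without exception in the lists. NF-κB is held in the cytoplasm by IκB proteins until a receptor signal removes them, and it then induces its own inhibitors. The motif GGGNNTTNCC was found on either strand in 6 of 16 promoters of the list (37.5%) and in 5.67% of all 27305. The matches of 3 feedback genes described below are printed, with the match in capitals, from RefSeq on GRCh38.p14. They lie at chr14:35404811-35404840 on the plus strand for NFKBIA, and on the minus strand at chr6:137867182-137867211 for TNFAIP3 and chr11:102317275-102317304 for BIRC3.
NFKBIA: gtcaggctcgGGGAATTTCCaagccagtca
TNFAIP3: ggatttccacGGGACTTTCCaaagtcacgt
BIRC3: aaacccactcGGGGATTTCCatgacccaaa

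All 20 genes of the NF-κB list were called higher, 17 by at least 2-fold, with a median of 3.78. NFKBIA, the inhibitor IκBα, stood at 63, 63.3 and 60 CPM at day 10 and 886, 903 and 918 CPM at day 15 (14.5-fold, edgeR adjusted p = 5.7e-48). TNFAIP3, the deubiquitinase A20 that ends the signal, went from 10.6, 12 and 13.6 CPM to 349, 343 and 342 CPM (28.7-fold), and BIRC3, an inhibitor of apoptosis, went from 0.857, 1.18 and 0.911 CPM to 77.9, 86.7 and 83.6 CPM (82.5-fold). The subunit genes RELB and NFKB2 rose 15.8-fold and 13-fold. BCL2A1, an anti-apoptotic target, had 0 counts at day 10 and 9.11, 7.49 and 6.67 CPM at day 15, at least 261-fold higher against a floor of 3 counts over the day. All 22 immediate early genes were called higher, 19 by at least 2-fold (median 3.14). FOS, a subunit of AP-1, stood at 7.65, 7.95 and 7.83 CPM at day 10 and 607, 630 and 625 CPM at day 15, a 79.3-fold rise, and FOSB rose 59.8-fold. DUSP1, a phosphatase that turns MAP kinases off, went from 14.7, 13.8 and 13.6 CPM to 286, 282 and 286 CPM.

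Replication-dependent histone genes had the highest median of the 7 lists with at least 50 tested genes (5.10). The smaller OAS and IFIT family (5.29) and the defensins and cathelicidin (9.13) had higher medians. The replication genes that these histone genes normally accompany fell. These histones package new DNA in S phase. Their transcripts usually end just after a short stem-loop and carry no poly(A) tail, since SLBP binds the stem-loop and the nascent RNA is cut behind it. In GENCODE 29 transcripts on GRCh38, 29 of 53 of these genes (54.7%) held a stem of 6 paired bases starting with GG around a loop of TTTN, against 40 of 15847 other protein-coding genes (0.252%). The 4 forms found are printed with the loop in capitals, each beside a gene that carries it. The first was in 17 genes, the second in 5, the third in 4 and the last in 3.
H2AC6: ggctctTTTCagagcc
H4C8: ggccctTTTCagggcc
H2BC7: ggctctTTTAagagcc
H4C9: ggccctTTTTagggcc

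Of 69 replication-dependent histone genes in the table, 54 were tested. Of these 50 were called higher, each at least 2-fold, and none lower, with a median of 5.10 that was 4.56 under library-size scaling. Summed over the 69, the level was between 88.7 and 92.9 CPM at day 10, between 4546 and 4561 CPM at day 15, between 223.9 and 236.3 CPM at day 20 and between 119.2 and 127.6 CPM at day 25. H2AC6 stood at 10, 11.9 and 12.1 CPM at day 10 and 1343, 1349 and 1403 CPM at day 15 (120-fold, SE 0.10 on the log2 scale, edgeR adjusted p = 4.2e-15). H2BC21 went from 5.05, 5.24 and 5.87 CPM to 585, 581 and 555 CPM (107-fold) and H2BC8 from 1.49, 1.00 and 0.742 CPM to 376, 365 and 379 CPM (345-fold). The linker histone gene H1-2 went from 12.7, 12 and 11.3 CPM to 383, 376 and 374 CPM. Every type took part, with summed levels of 12.4 and then 389.7 CPM for H1, 28.3 and 1750 CPM for H2A, 34.1 and 1590 CPM for H2B, 9.26 and 582.4 CPM for H3, and 7.30 and 241.4 CPM for H4. The 4 tested genes that were not called were H2AC20, H2AC25, H3C2 and H3C8. Without day 15 replicate 3 H2AC20 was called higher (edgeR adjusted p = 0.046) and H2AC25 lower (0.023). Copies of a histone are near-identical, so the split among them is uncertain.

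Among the 29 genes with a matched stem-loop, summed levels rose both for short and for long annotated transcript ends. The ends of the RNAs in these libraries were not examined. The 11 genes whose annotated transcript ran 100 bases or fewer past the stem-loop summed to 9.60 and then 370.5 CPM (median 5.70), and the 18 with a longer annotated end, by 116 to 1917 bases, to 45.4 and then 3147 CPM (median 4.42). Of 9 genes for histone transcription and 3′ end formation, 7 were lower. SLBP fell by 0.45 on the log2 scale, from 130, 129 and 126 CPM to 103, 93.6 and 85.9 CPM. LSM11 fell by 1.61, CSTF2 by 1.42, CPSF3 by 1.22 and ERI1 by 1.13. LSM10 was not called (0.14), and NPAT, the coactivator of histone genes, was higher (0.46), with the other sign for both under library-size scaling. These processing genes were chosen after the histone values were seen. The labels do not say whether poly(A) RNA was selected, and the part of 3′ processing in the histone levels was not tested.

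**Figure D2:**
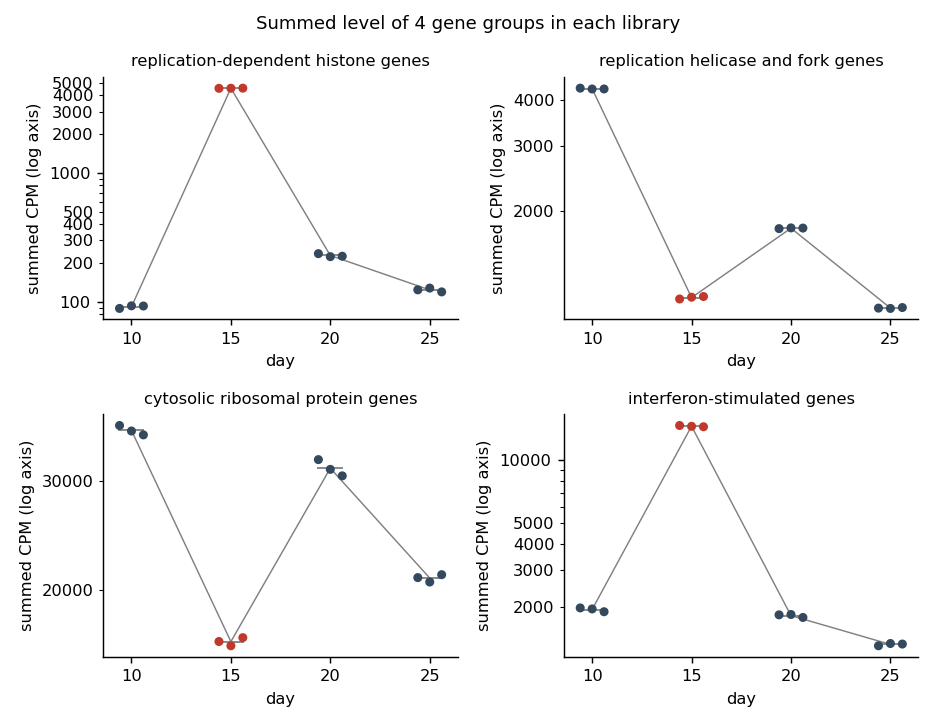
Summed CPM (log axis) of 4 gene groups at days 10, 15, 20 and 25, 1 point a library, with a line through the means. At day 15 the histone sum (4546 to 4561 CPM) and the interferon-stimulated sum (14430 to 14630 CPM) stood above all 9 other libraries, while the ribosomal protein sum (16250 to 16750 CPM) stood below them.

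All 31 genes of the replication helicase and fork were called lower, 30 by at least 2-fold, with a median of -2.11. CDC6, which loads the helicase, fell from 91.6, 90.5 and 91.6 CPM to 12.1, 14.7 and 13.9 CPM (6.73-fold, edgeR adjusted p = 7.1e-31). MCM2, a helicase subunit, stood at 216, 206 and 212 CPM at day 10 and 37.1, 32.9 and 34.2 CPM at day 15, and MCM4 and GINS1 fell 6.14-fold and 5.95-fold. Their sum was 4275 to 4298 CPM at day 10, 1159 to 1177 CPM at day 15, 1795 to 1803 CPM at day 20 and 1093 to 1099 CPM at day 25. It did not overlap between days 10 and 15, when the histone sum moved the other way. Of 31 kinetochore and spindle genes 30 were lower (median -2.48), led by SPC25 (8.96-fold) and CENPA (8.43-fold). The exception was MIS12, at a log2 fold change of 0.19 that turned its sign under library-size scaling. Its call was lost without day 10 replicate 1 (edgeR adjusted p = 0.079), day 10 replicate 3 (0.13) or day 15 replicate 1 (0.15). Of 28 Fanconi and homologous recombination genes 27 were lower (median -1.94), with RAD54L down 7.68-fold, FANCD2 down 5.04-fold, and BARD1 not called. The E2F motif TTTNGCGC stood in 14 of 28 replication promoters (50.0%) against 1.83% of all, and the motif TTTGAA, known as the cell cycle homology region, in 12 of 23 kinetochore promoters (52.2%) against 15.4%. The motif TATAAA stood in 32 of 48 histone promoters (66.7%) against 12.0%. All were searched on either strand of the same 300 bases, and a match describes the letters only.

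Most p53-responsive genes were higher over the same interval, while CDK inhibitor and quiescence genes divided. Of 32 in that second list 18 were called higher and 12 lower, 13 and 8 of them by at least 2-fold (median 0.55, or 0.02 under library-size scaling). CDKN1A, which encodes the CDK inhibitor p21, stood at 79.4, 80.2 and 79.3 CPM at day 10 and 1233, 1270 and 1308 CPM at day 15 (15.9-fold, edgeR adjusted p = 6.9e-49). CDKN2B, the inhibitor p15, went from 1.17, 1.13 and 0.945 CPM to 74.4, 78.4 and 80.3 CPM (71.1-fold), and KLF2 and KLF4 rose 25-fold and 24.2-fold. E2F8 and CDKN2C fell 5.07-fold and 3.83-fold. Of 26 p53-responsive genes 21 were called higher (median 1.00) and 2 lower, TP53I3 and PERP, the latter named after its values were seen. GADD45B went from 1.11, 0.652 and 0.675 CPM to 102, 109 and 109 CPM (132-fold), and BBC3, the pro-apoptotic BH3 protein PUMA, stood at 14.7, 11.5 and 14 CPM at day 10 and 490, 511 and 562 CPM at day 15 (39.2-fold). In the BCL2 family 13 of 18 were called higher (median 0.96) and BAK1 alone lower (-0.75). BMF, another BH3 protein gene, went from 37.1, 35.4 and 33.9 CPM to 488, 512 and 516 CPM. Of 30 autophagy and lysosome regulators 26 were called higher (median 1.09). SQSTM1, the cargo receptor p62, went from 78.1, 82 and 79.6 CPM to 764, 815 and 845 CPM, and GABARAPL1 rose 11-fold, whereas ULK2 and ATG16L1 fell by 0.63 and 0.58 on the log2 scale.

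Genes for making ribosomes and proteins were lower as a body. All 35 ribosome biogenesis genes were called lower, 27 by at least 2-fold (median -1.24). NPM1, the nucleolar chaperone, stood at 701, 696 and 679 CPM at day 10 and 186, 186 and 186 CPM at day 15 (3.72-fold lower, edgeR adjusted p = 4.1e-36), and TCOF1 and BOP1 fell 3.60-fold and 3.44-fold. Of 82 cytosolic ribosomal protein genes 80 were lower, 55 by at least 2-fold (median -1.08), and their share of all counts was 4.06%, 3.94% and 3.91% at day 10 and 1.25%, 1.23% and 1.26% at day 15. RPS2 went from 1426, 1352 and 1390 CPM to 454, 424 and 453 CPM. RPS27L, a p53-induced relative of RPS27, went against the list, from 35.5, 37.6 and 36.9 CPM to 108, 114 and 114 CPM, and RPL39L was not called, though it was lower without day 15 replicate 2 (edgeR adjusted p = 0.027). Of 77 mitochondrial ribosomal protein genes 70 were lower (median -0.91), of 20 aminoacyl-tRNA synthetase genes 18 (median -0.96), and of 33 core spliceosome genes 28 (median -0.88). The 13 tested genes of the mitochondrial genome moved little on the TMM scale (median -0.24, or -0.77 under library-size scaling). Of these 2 were called higher and 7 lower, none by 2-fold, and their share of counts was 5.15%, 5.55% and 5.65% and then 3.46%, 3.61% and 3.56%. Shares are of each library's total without TMM factors, so they do not match the folds in CPM. An exact permutation test of each share gave p = 0.10, the smallest that 3 against 3 libraries allow.

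**Figure D3:**
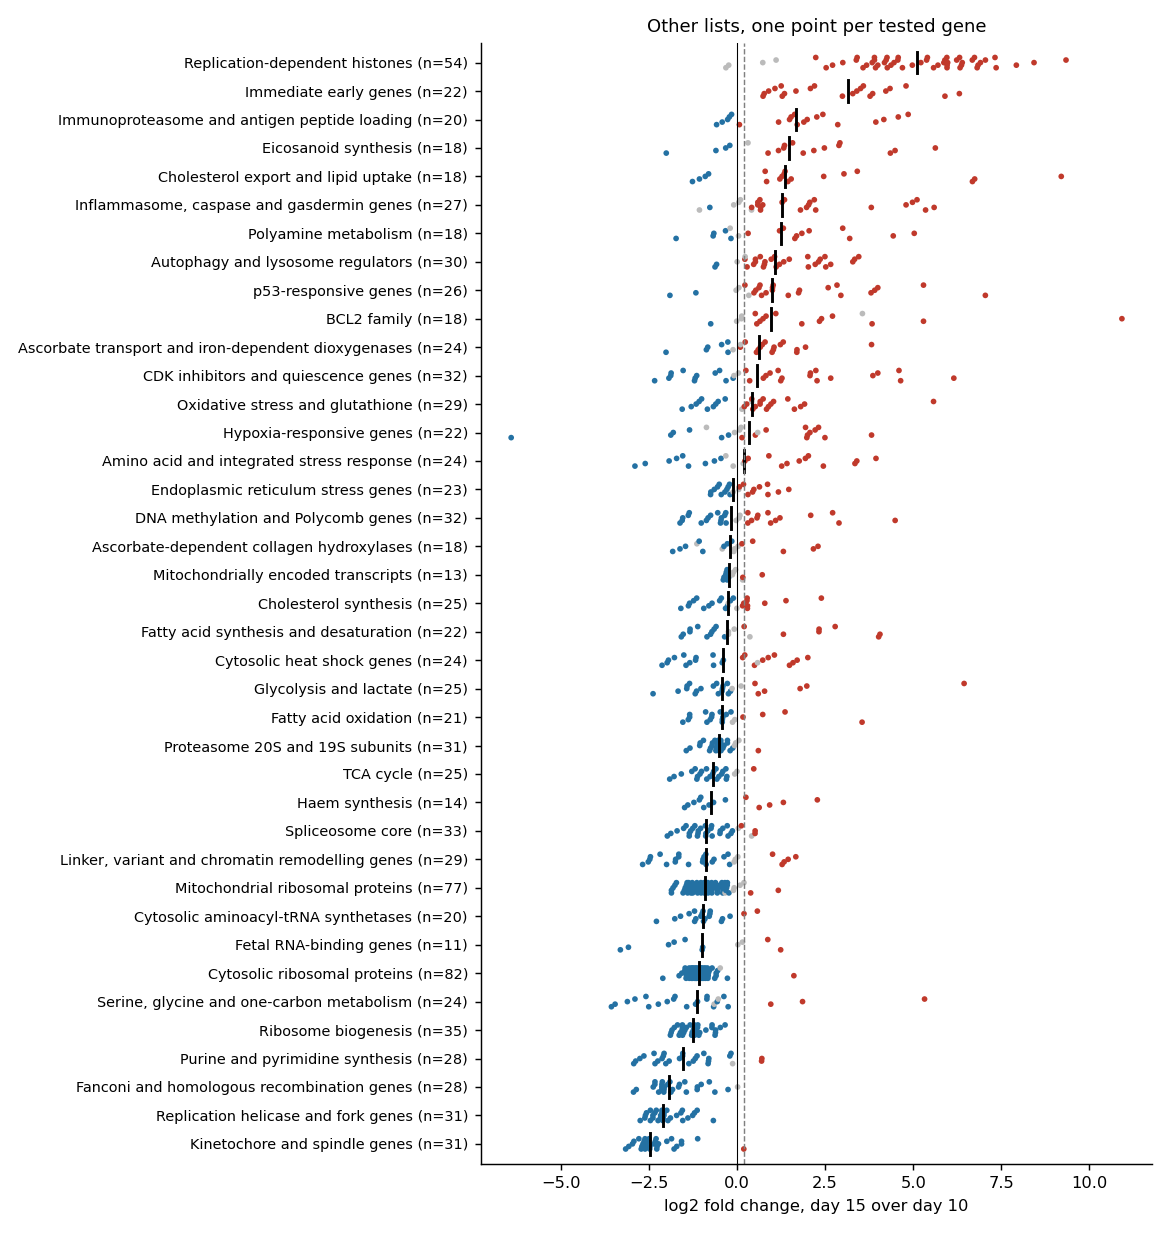
Log2 fold change of day 15 over day 10 for every tested gene of the metabolic, machinery and stress lists, coloured as in the plot of signalling lists, with the list median as a black bar and the median of all genes as a dashed line. Histones stand at the upper right with a median of 5.10, and kinetochore and replication genes at the lower left with medians of -2.48 and -2.11.

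Nucleotide and folate metabolism went down with replication. Of 28 purine and pyrimidine synthesis genes 25 were lower, 19 by at least 2-fold (median -1.54). RRM2, the regulated subunit of ribonucleotide reductase, stood at 499, 522 and 496 CPM at day 10 and 64.4, 69.8 and 64.6 CPM at day 15, and CTPS1 fell 7.36-fold. RRM2B, its p53-induced counterpart, rose 1.62-fold, and DHODH rose by 0.70 on the log2 scale, a call lost under library-size scaling (0.17, edgeR adjusted p = 0.11). Of 24 genes for serine, glycine and folate metabolism 19 were lower (median -1.15), with GLDC, of the glycine cleavage system, going from 5.46, 3.99 and 6.07 CPM to 0.253, 0.387 and 0.643 CPM (11.9-fold). MTHFD2L, a mitochondrial folate enzyme, went the other way, from 34.2, 35.8 and 34.1 CPM to 67.2, 67.5 and 67.6 CPM, and MAT1A was also higher, named after its values were seen. In the TCA cycle 22 of 25 genes were lower (median -0.69) and 1, ACO1, higher, though it turned lower under library-size scaling. Glycolysis genes were lower in 17 of 25 (median -0.42), with PFKP down 5.23-fold, but SLC2A3, a high-affinity glucose transporter, went from 720, 702 and 750 CPM to 2907, 2804 and 2853 CPM. Of 22 hypoxia-responsive genes 11 were higher and 6 lower (median 0.33, or -0.20 under library-size scaling), near the 42.4% and 30.8% of all genes. By at least 2-fold 8 (36.4%) were higher and 4 (18.2%) lower, against 28.2% and 14.7% of all genes. BNIP3L, a mitophagy receptor, was up 5.63-fold and the glucose transporter SLC2A1 down 2.55-fold.

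Lipid and polyamine lists held genes that moved in both directions. Of 18 genes for cholesterol export and lipid uptake 14 were called higher (median 1.35), while 14 of 25 cholesterol synthesis genes were lower and 9 higher (median -0.25). By at least 2-fold 5 (20.0%) of these 25 were lower and 2 (8.00%) higher, and their summed level went from 2258 to 3247 CPM. PLIN2, which coats lipid droplets, stood at 79.6, 82.9 and 79.9 CPM at day 10 and 435, 442 and 457 CPM at day 15, and the scavenger receptor genes OLR1 and CD36 rose 103-fold and 8.19-fold. INSIG1, which retains the sterol sensor in the endoplasmic reticulum, went from 186, 199 and 179 CPM to 984, 993 and 983 CPM. APOE and SCARB1 fell 2.41-fold and 2.10-fold, and NR1H3 and FABP5, named after their values were seen, also fell. Of 22 genes for fatty acid synthesis and desaturation 7 were called higher and 11 lower, 6 and 5 of them by at least 2-fold (median -0.30). FASN and SCD fell 2.89-fold and 3.00-fold, and ACSL1, which activates fatty acids, rose 16.6-fold. In polyamine metabolism 11 of 18 genes were higher (median 1.26). SAT1, which acetylates polyamines for export, stood at 39.8, 45.3 and 41.2 CPM at day 10 and 1405, 1359 and 1368 CPM at day 15 (32.6-fold, edgeR adjusted p = 2.8e-50). SMOX, a spermine oxidase, went from 34.7, 33.4 and 33 CPM to 713, 715 and 756 CPM, and OAZ1, which marks ornithine decarboxylase for degradation, rose 4.13-fold. SRM, the synthase for spermidine, went down from 69.8, 71 and 73.8 CPM to 21.1, 21.7 and 21.8 CPM. Among eicosanoid genes 13 of 18 were higher (median 1.46), with ALOX15 up 49.4-fold and ALOX5 up 20.4-fold.

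DNA methylation and Polycomb genes divided. Of 32 tested 16 were called lower and 13 higher, 6 of each by at least 2-fold (median -0.17). DNMT1, the maintenance methyltransferase, stood at 445, 443 and 440 CPM at day 10 and 151, 159 and 141 CPM at day 15, and UHRF1, PHF19 and EZH2 fell 2.91-fold, 3.07-fold and 2.61-fold. CBX7, a reader of the Polycomb mark, went from 3.30, 3.86 and 4.82 CPM to 31.2, 29.9 and 27.7 CPM, and PCGF5, also a Polycomb subunit, went from 65.4, 66 and 63.6 CPM to 428, 433 and 417 CPM. Both rose beyond the spread of the libraries. Of 24 genes for ascorbate transport and for the iron-dependent dioxygenases that use it, 16 were called higher and 6 lower (median 0.63). By at least 2-fold 8 (33.3%) were higher, near the 28.2% of all genes, and 1 (4.17%) was lower. The histone demethylase genes KDM3A and KDM6B rose 3.85-fold and 3.24-fold, TET2 3.25-fold, and TET1 fell 4.05-fold. EGLN3, an oxygen-sensing hydroxylase, stood at 25, 26.3 and 24.4 CPM at day 10 and 361, 357 and 351 CPM at day 15. Of 18 collagen-modifying genes 5 were higher and 8 lower, with PLOD2 going from 32.3, 32.4 and 30.4 CPM to 142, 152 and 133 CPM and SERPINH1 down 3.08-fold.

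Among gene families taken by symbol, those for signalling between immune cells were mostly higher. Of 31 tested chemokine ligand genes 28 were called higher, 26 by at least 2-fold, and none lower (median 4.24). CCL5, which draws T cells and eosinophils, went from 8.47, 8.50 and 8.84 CPM to 697, 651 and 705 CPM (79.6-fold, edgeR adjusted p = 1e-15). CXCL10, an interferon-induced ligand of CXCR3, went from 0.603, 0.502 and 0.540 CPM to 55.6, 52.7 and 55.4 CPM (99.5-fold). CXCL11, its relative, had 2 counts at day 10 and 24.8, 21.3 and 24.5 CPM at day 15. Of 15 TNF superfamily ligands 14 were higher, among them TNFSF13B, a B-cell survival factor, from 2.00, 2.21 and 2.36 CPM to 135, 130 and 129 CPM, with TNFSF12 not called. CD40LG rose 81.3-fold to 24.6, 22.9 and 19 CPM. Of 19 chemokine receptors 15 were higher, and CCR4 stood at 7.36, 7.83 and 8.23 CPM at day 10 and 185, 169 and 172 CPM at day 15. TLR5, the flagellin receptor, went from 0.952, 1.43 and 0.945 CPM to 112, 97.5 and 111 CPM, with 9 of 10 Toll-like receptors higher and TLR3 not called. P2RY12, an ADP receptor of platelets and mast cells, went from 0.952, 1.25 and 0.742 CPM to 143, 145 and 140 CPM, and 16 of 19 purinergic receptors were higher. Many of these genes are expressed by the megakaryocytic, eosinophil and mast cell, and neutrophil and monocyte types whose marker sums are given above.

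Other families showed single members far from the rest. Of 75 potassium channel genes 39 were higher and 11 lower. KCND3, a fast voltage-gated channel, stood at 0.920, 0.752 and 1.62 CPM at day 10 and 258, 245 and 244 CPM at day 15, and KCNK17, an open leak channel, fell from 42.7, 36.2 and 38.3 CPM to 2.70, 2.13 and 3.05 CPM. Of 37 nuclear receptors 23 were higher and 5 lower. THRB, a thyroid hormone receptor, went from 0.920, 1.35 and 1.18 CPM to 85.4, 85.6 and 84.3 CPM. Of 41 collagen chain genes 30 were higher (median 0.83), and COL24A1 was the most abundant of those named, from 296, 307 and 295 CPM to 1846, 1846 and 1812 CPM, while COL2A1 fell 4.02-fold. SLC40A1, the iron exporter ferroportin, rose from 229, 227 and 229 CPM to 1393, 1374 and 1388 CPM. SLC30A10, a manganese exporter, fell from 12.7, 15.6 and 14.2 CPM to 0.337, 0.435 and 0.643 CPM (29.6-fold). Of 18 tubulin genes 11 were higher and 7 lower: TUBA4A went from 440, 435 and 434 CPM to 2024, 2158 and 2167 CPM and TUBB, with wide expression in dividing cells, from 1576, 1666 and 1650 CPM to 566, 562 and 573 CPM. Of 37 kinesin genes 23 were lower (median -0.61), and of 16 aldehyde dehydrogenases 10, with ALDH1A1 down 8.93-fold and ALDH1A2, a retinoic acid synthase, up 12.7-fold. The 10 HOXB genes had no member called higher and 9 lower (median -0.84), with HOXB8 down 2.21-fold, HOXB3 down 1.86-fold and HOXB13 not called. The 476 tested ZNF zinc finger genes were nearly balanced, at 165 higher and 162 lower (median 0.02, or -0.51 under library-size scaling).

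Long non-coding genes shifted upward more than protein-coding genes. Of 3864 tested, 1394 (36.1%) were at least 2-fold higher and 370 (9.58%) at least 2-fold lower, with a median of 0.67. For 15904 protein-coding genes these shares were 25.9% and 16.1%, with a median of 0.10. The gap was wide at high levels and was not seen at the lowest. Level here is that of the higher day, so a rise itself moves a gene to a higher level. The shares by level therefore depend in part on that grouping. At 20 CPM or more on the higher day, 63.5% of 200 long non-coding genes and 24.7% of 8496 protein-coding genes were at least 2-fold higher, whereas under 1 CPM the shares were 21.6% and 24.9%. Long non-coding RNA took 1.18%, 1.19% and 1.19% of counts at day 10 and 2.31%, 2.25% and 2.25% at day 15 (exact permutation p = 0.10, the smallest possible). Intergenic genes were 2-fold higher more often (42.1% of 1462) than antisense genes (33.1% of 1789). Since use of strand in the counting is not given in the sources used here, reads of an antisense gene cannot be told from those of the gene opposite. This difference was not tested.

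**Figure D4:**
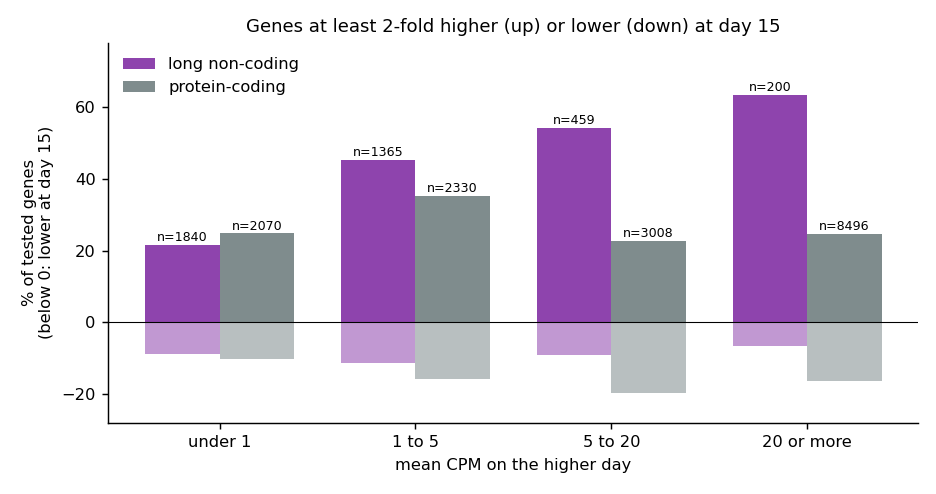
Percent of tested genes at least 2-fold higher (bars above 0) or lower (paler bars below 0) at day 15, for long non-coding and protein-coding genes, by mean CPM on the higher day. The upper bars for long non-coding genes grow with level from 21.6% to 63.5%, and n above each bar is the number of genes tested. A rise itself moves a gene to a higher level, so the growth depends in part on that grouping.

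Structural and nuclear RNAs had no common direction, with 9 of 23 called higher and 10 lower (median -0.56), although some abundant ones rose. NEAT1, the scaffold of paraspeckles, stood at 724, 732 and 735 CPM at day 10 and 6867, 6904 and 7061 CPM at day 15 (9.51-fold, edgeR adjusted p = 7.5e-50) and was at a mean of 883 CPM at day 20. MALAT1, a speckle RNA, went from 414, 381 and 370 CPM to 3112, 2650 and 2779 CPM (7.34-fold), and NORAD, which binds PUMILIO proteins, from 377, 394 and 384 CPM to 1855, 1844 and 1784 CPM (4.75-fold). The last 2 were named after their values were seen, for their abundance. Without these 3 genes the long non-coding share of counts was 1.02% and then 1.39% on average. LINC-PINT, a p53-regulated transcript, went from 0.317, 0.251 and 0.202 CPM to 35.9, 33.2 and 33 CPM. FIRRE, an X-linked RNA with a role in nuclear organisation, fell from 11.9, 10.8 and 12.4 CPM to 2.32, 1.16 and 2.21 CPM, and KCNQ1OT1, an imprinted antisense RNA, fell 1.81-fold. Among the largest rises by fold were LINC02884, from 0.571, 0.452 and 0.270 CPM to 262, 262 and 258 CPM (594-fold), and SAMD4A-AS1, with 0 counts at day 10 and 7.59, 6.72 and 6.75 CPM at day 15 (at least 236-fold higher). LINC00664 fell from 14.9, 13.8 and 14.3 CPM to 1.85, 1.06 and 1.41 CPM.

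Host transcripts of small nucleolar RNAs, which guide ribosomal RNA modification, followed the ribosome genes. Of 34 tested 22 were lower and 7 higher (median -0.63). SNHG4 fell from 40, 41.8 and 37.8 CPM to 7.51, 9.42 and 8.07 CPM, SNHG16 fell 3.65-fold and SNHG8 3.15-fold. SNHG20 went against the list, from 12, 10.9 and 11.2 CPM to 93.7, 96.8 and 97.4 CPM, and SNHG10 rose 4.97-fold.

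**Figure D5:**
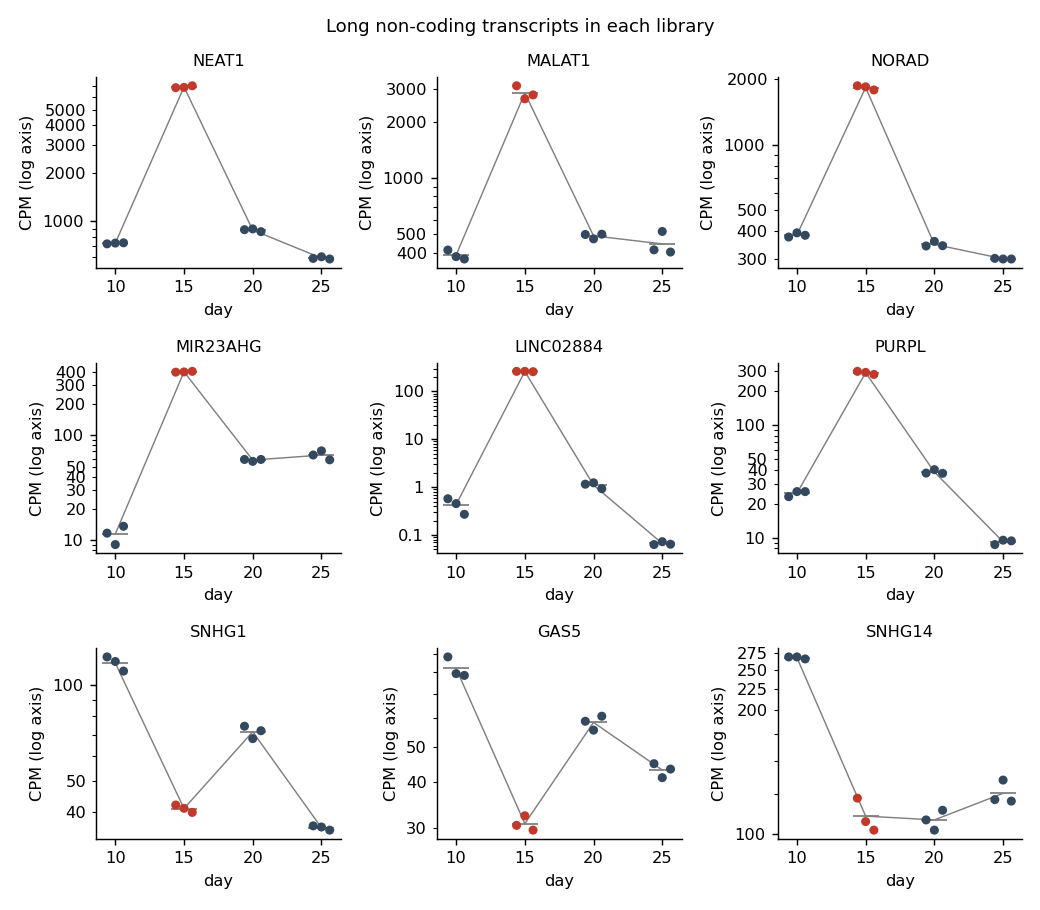
CPM (log axis) of 9 long non-coding transcripts at days 10, 15, 20 and 25, 1 point a library with a line through the means, chosen after their values were seen for abundance or size of change. NEAT1 stood between 6867 and 7061 CPM at day 15, above the libraries of the other days.

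MicroRNA host transcripts were mostly higher. A host carries the hairpin of a microRNA in its RNA, and the mature microRNA pairs through its seed, bases 2 to 8, with target transcripts. Of 30 hosts tested 17 were called higher and 4 lower (median 1.19). Mature microRNAs were not measured, so the values are of the host transcripts alone. The mature sequences are printed for the hosts that rose most and for MIR222HG and MIR34AHG, to show which seeds they would carry, with the seed in capitals, from RefSeq on GRCh38.p14. Hosts outside the 4 largest rises were named after their values were seen.
miR-29b-3p: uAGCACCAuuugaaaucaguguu
miR-29c-3p: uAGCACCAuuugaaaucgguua
miR-23a-3p: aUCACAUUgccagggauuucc
miR-27a-3p: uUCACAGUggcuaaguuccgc
miR-24-3p: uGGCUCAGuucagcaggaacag
miR-146a-5p: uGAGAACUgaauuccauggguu
miR-503-5p: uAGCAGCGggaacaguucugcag
miR-34a-5p: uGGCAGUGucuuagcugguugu
miR-221-3p: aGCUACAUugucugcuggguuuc
miR-222-3p: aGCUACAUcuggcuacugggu

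MIR29B2CHG, the host of miR-29b and miR-29c, which share 1 seed, stood at 0.413, 0.803 and 0.607 CPM at day 10 and 46, 51.4 and 45.8 CPM at day 15 (76.2-fold, edgeR adjusted p = 1.2e-31). MIR23AHG, the host of miR-23a, miR-27a and miR-24 with 3 different seeds, went from 11.7, 9.11 and 13.6 CPM to 398, 400 and 405 CPM (35.4-fold). MIR3142HG, which holds miR-146a, a microRNA induced by NF-κB, went from 1.33, 1.10 and 1.11 CPM to 37.1, 35.6 and 31.1 CPM (29.2-fold). No host library of day 10 came near one of day 15 in these cases. MIR503HG rose 7.65-fold, MIR34AHG, whose product miR-34a is induced by p53, 7.11-fold, and MIR222HG, host of miR-221 and miR-222 with their shared seed, 4.98-fold. DLEU1 and DLEU2 fell 2.10-fold and 1.32-fold, with MIR99AHG and MIR210HG, named after their values were seen, also lower. The call of MIR210HG was lost without day 15 replicate 1 (edgeR adjusted p = 0.053).

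Neighbouring genes often rose together. In 148 runs, at least 5 tested neighbours in order along a chromosome were all 2-fold higher, taking in 979 genes, against 13 runs and 70 genes that were all 2-fold lower. The longest run up held 30 genes on chromosome 6 from 24804281 to 26253710 (GENCODE 29, GRCh38), from RIPOR2 to H2BC9. It is part of the main histone cluster, but its members also include HFE, an iron-regulating relative of class I molecules, from 0.540, 0.602 and 0.371 CPM to 49.6, 56.4 and 53.7 CPM, and TRIM38, from 15.1, 14.9 and 16.1 CPM to 40.4, 43 and 41.1 CPM. The next, on chromosome 2 from 6728177 to 8837630, held 18 genes, from LINC00487 past RSAD2 and CMPK2 to ID2 and KIDINS220. Between those interferon-stimulated genes and ID2 lay RNF144A (3.56-fold) and LINC00299, from 4.57, 4.09 and 4.96 CPM to 103, 108 and 98.8 CPM. On chromosome 11 from 1223066 to 1892267, 15 genes from MUC5B to PRR33 included CTSD, a lysosomal protease gene, from 191, 177 and 186 CPM to 818, 853 and 930 CPM, and LSP1, a leukocyte actin-binding protein gene (26.6-fold). The longest runs down held 7 genes each, on chromosome 15 from 40161023 to 40307935, with BUB1B and PLCB2, and on chromosome 19 from 23075201 to 23416075, with ZNF91 and ZNF730. How many runs the overall excess of rises would give was not tested.

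Some of the largest changes were in genes of no list. Apart from granule genes, KLHDC7B had 0 counts at day 10 and 18.9, 22.9 and 21 CPM at day 15 (at least 705-fold higher). FBXO32, a ubiquitin ligase subunit of the FOXO program, went from 0.381, 1.08 and 0.607 CPM to 181, 192 and 171 CPM (250-fold), and INSRR, an insulin receptor relative, from 0.127, 0.10 and 0.304 CPM to 44.9, 41.3 and 40.3 CPM. PTGDR, a prostaglandin D2 receptor, had 4 counts at day 10 and 15.6, 15.5 and 20.2 CPM at day 15. By level, THBS1, a platelet and matrix protein gene, went from 9211, 9562 and 9342 CPM to 20390, 20020 and 19760 CPM, TXNIP, a brake on glucose uptake, from 340, 350 and 336 CPM to 2576, 2617 and 2605 CPM, and TSC22D1, from 260, 267 and 258 CPM to 2495, 2513 and 2510 CPM. The largest falls by fold in these genes were PBK, a mitotic kinase gene, from 43.7, 45.4 and 43.7 CPM to 3.21, 1.74 and 1.57 CPM, then CNRIP1, from 46, 47.4 and 49.8 CPM to 3.92, 3.77 and 3.54 CPM, and UBE2C, which serves the anaphase complex, from 388, 387 and 373 CPM to 31.6, 27.8 and 32.9 CPM. Among translation genes EEF1A1 fell 1.68-fold and EEF2 1.98-fold.

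Many of the changes did not last in the means of day 20. Of the 5698 genes at least 2-fold higher at day 15, 3140 (55.1%) had a day 20 mean under 2-fold above that of day 10, with 0.1 CPM added to each mean. A further move up by 2-fold or more beyond day 15 was seen in 1069 (18.8%). Of the 2957 at least 2-fold lower, 2162 (73.1%) were under 2-fold below day 10 at day 20, and 69 (2.33%) went on down by 2-fold. These shares compare means and carry no test, and they use day 10 and day 15 values that chose the genes.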

How the data were processed

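Of the upstream steps, poly(A) selection, aligner, counter, gene annotation and use of strand were not given in the sources used here. Per the labels' protocols, libraries were prepared by LM-Seq from total RNA and sequenced as single reads. The submitters' processing notes name GRCh38. The deposited table holds the authors' whole-number counts per gene, not normalized. The day 10 and day 15 columns were compared with edgeR 4.0.16 in R 4.3.3 (TMM, filterByExpr with a minimum count of 10, robust quasi-likelihood fit on all 12 libraries, Benjamini-Hochberg adjusted p under 0.05), tested on simulated data. CPM and tables were made with Python 3.11.15. DESeq2 1.42.0, limma-voom 3.58.1, other scalings, filters and library sets were alternatives. Median SD between libraries was 3.96% of the mean at day 10 and 4.77% at day 15 for genes at 10 CPM or more. Chromosome positions and gene classes come from GENCODE 29. A fold against 0 counts uses a floor of 3 counts over a day, which covers counting error only. The comparison and gene lists were chosen with earlier results of these data known. Named genes were the called list members with the largest changes at 5 CPM or more (up to 4 with the list's median and 2 against), members of the signalling lists, the largest changes outside lists, and members of the longest runs. Exceptions to a list outside that rule were named after their values were seen. Some genes are not reported here.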

Additional observations from a re-analysis of the deposited data

How the results depend on the processing

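Library-size scaling in place of TMM moved the split of genes differing at least 2-fold from 5698 higher and 2957 lower to 4050 higher and 5528 lower, and the non-coding genes at least 2-fold lower from 370 to 681. The stricter filter left 1140 non-coding genes at 2-fold, 923 higher and 217 lower. Taking mitochondrially encoded genes out of the denominator moved the difference in the ribosomal protein share to -2.90 percentage points and that in the histone share to 0.346. Without 1 library, 14340 to 14434 genes differed (8305 to 8391 higher, 6009 to 6099 lower), 8539 to 8626 by 2-fold (5618 to 5707 higher, 2910 to 2940 lower). Non-coding genes at 2-fold then numbered 1693 to 1774 (1339 to 1419 higher, 339 to 356 lower). Other settings kept the count of differing genes within 1.5 times. With the replicate block 14592 genes differed, 8439 higher and 6153 lower. No pairing of libraries by number was seen, with deviations of same-numbered libraries correlated at 0.002, -0.005 and 0.003. Counting noise is part of these deviations, so a weak pairing could be missed. Signs turned under library-size scaling for NOTCH1 (-0.45), NOTCH2 (-0.43), IFI6 (-0.45), MIS12 (-0.34), LSM10 (-0.39), NPAT (-0.070), PECAM1 (-0.18), ACO1 (-0.060), BARD1 (-0.52), TLR3 (-0.020) and TNFSF12 (-0.32). They turned in the fit of 6 libraries for NOTCH1 (-0.091), NOTCH2 (-0.073), IFI6 (-0.094), LSM10 (-0.038) and BARD1 (-0.17). With no filter they turned for NOTCH1 (-0.12), NOTCH2 (-0.097), IFI6 (-0.12), MIS12 (-0.014), LSM10 (-0.061) and BARD1 (-0.19), and with limma-voom for TLR3 (-0.41). Without 1 library, genes that were not called ranged from -0.025 to 0.052 (BARD1), -0.66 to 0.13 (DTX1), -1.20 to 0.22 (H3C8), -1.73 to 1.09 (TLR3) and -0.070 to 0.44 (TNFSF12). The cause was not tested.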
